A study of Neurospora crassa with 2 samples.

Results

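Genes that follow one another closely on 1 strand were examined in the filamentous fungus Neurospora crassa, in a wild-type strain and in a strain lacking upf1. The members are 1182 pairs of consecutive genes that the deposited table lists on the same strand, with the start of the second gene 1 to 500 bp after the end of the first. They were chosen by position alone, out of 9446 pairs of neighbours, and hold 2184 of the 9454 genes. A gap of 1 bp means that the gene models touch without sharing a base.

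Each strain was represented by 1 library. Both groups were untreated hyphae: the strains spent 2 weeks on minimal slants and then 2 days in medium with 2% glucose, under constant light. RNA of 3 flasks was pooled per strain before sequencing of polyadenylated RNA. The wild type and the knockout (titled UPF1 strain) thus differ in the upf1 gene and, as pools, give no spread between cultures. The sources used here do not say which part of upf1 was removed.

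Where 2 genes lie in tandem, the polymerase that transcribes the upstream gene can pass its poly(A) site and run into the downstream gene, which is called transcriptional read-through. A transcript that covers both genes carries a second coding region behind the first stop codon. UPF1 is the helicase of nonsense-mediated mRNA decay, and a long stretch behind the stop codon is one of the features known to mark a transcript for this decay. The comparison asks whether the knockout to wild-type ratio of a downstream gene follows that of its upstream neighbour, and whether it does so more in close pairs than in tandem pairs with larger gaps. Reads counted per gene model do not tell a joined transcript from 2 separate ones.

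Gene reads summed to 56306422 for the knockout and 28189643 for the wild type. The upf1 entry (NCU04242, symbol prd-6), which is in no close pair, had 2.78 RPKM (reads divided by gene length and library size) in the knockout against 22.6 in the wild type, which is 8.15-fold lower (7.48 to 8.89). Ratios below are log2((knockout RPKM + 1)/(wild-type RPKM + 1)), a scale that shrinks the differences of weak genes. A gene was eligible if either library gave it 5 RPKM or more, and higher or lower means at least 2-fold on this scale. With 1 library per strain there is no test between strains, and no p-value is given. Where a gene is followed by a pair of values, the knockout comes first. Folds are ratios of reads over library totals, and their intervals are exact 95% intervals that cover counting error alone. In bulk RNA, fewer cells that express a gene and less RNA per cell cannot be told apart. Of 6 conidiation markers con-10 lies in a close pair, and their summed level was 2529 RPKM in the knockout against 16070 in the wild type, with none at 0. The rodlet gene eas made up most of both sums, with 1619 and 15983 RPKM. Without it the sums were 911 and 86.8 RPKM, the opposite direction: con-6, con-8, con-10 and con-13 were higher in the knockout, and eas and fl were lower. Of 5 markers of sexual structures asd-1 lies in a close pair, and it gave 74.2 and 16.1 of their summed 75.7 and 23.2 RPKM. The marker poi-2 had 1.54 and 7.09 RPKM, the opposite direction, and the 3 mating-type genes had no read in either library. The part of these cell types in the results was not tested.

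The strand column of the table limits what can be called tandem. It lists 7016 of 9454 genes (74.2%) on the minus strand, between 71.7% and 78.6% on each supercontig. The share listed plus went from 9.81% in the lowest eighth of genes by wild-type RPKM to 47.0% in the highest. In the mitochondrial genome, 4 of 6 endonuclease genes that lie inside another gene are listed on the strand opposite to it. The overlap of neighbours also depended on the listing. Overlapping models were found in 17.3% of pairs listed convergent, in 0.416% of those listed divergent, in 2.34% of pairs listed plus and plus, and in 1.95% of those listed minus and minus. Whether minus entries stand for unknown strand in some genes was not tested, and the gene name table used here lists no strand. Of the close pairs 143 are listed plus and 1039 minus, so values for the plus pairs are given beside the main ones.

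**Figure D1:**
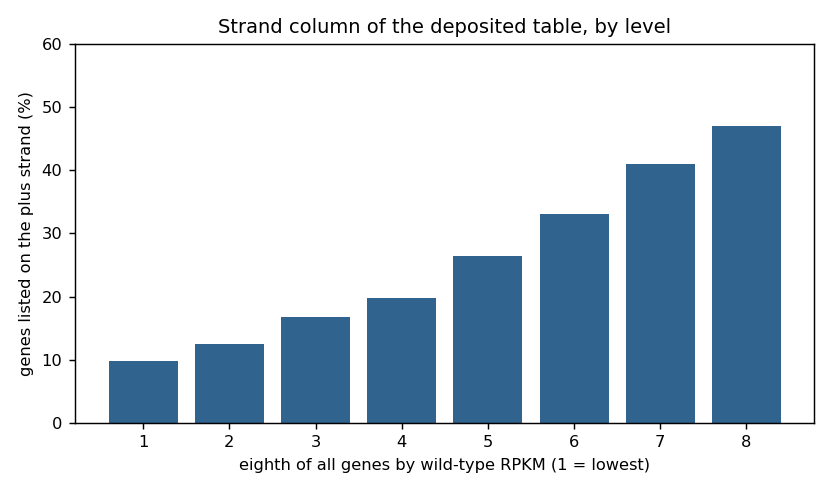
Share of genes listed on the plus strand in the deposited table (y axis, percent) in each eighth of all genes ordered by wild-type RPKM (x axis, 1 is the lowest). Bars rise from 9.81% to 47.0%.

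The close pairs were spread over the genome. Members made up between 21.4% and 24.2% of the genes on each of the 7 nuclear supercontigs, and 4 of 28 mitochondrial entries. The gap had a median of 308 bp, and 437 pairs had a gap of at most 250 bp. The pairs formed 848 isolated pairs, 134 runs of 3 genes, 15 of 4, 4 of 5 and 1 of 6. Products named hypothetical made up 53.3% of the members and 53.0% of the other genes. Gene models had a median length of 1535 bases in the members and 1650 in the rest. The median level in the wild type was 15.9 RPKM in the members and 15.1 in the other genes. Upstream genes had a median of 19.5 RPKM there and downstream genes 12.9. Just inside the limit, 37 pairs with a gap of 491 to 500 bp had median log2 ratios of 0.44 upstream and 0.28 downstream over 30 pairs with both genes expressed. Just outside, 18 pairs with 502 to 510 bp had 0.27 and 0.05 over 10 such pairs.

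Of the 2184 members 1742 were eligible, and 9 had no read in either library. The filter keeps a weak gene through the library where it is higher, so the shares below describe the eligible members and not the whole set. Among the eligible, 301 (17.3%) were higher, against 16.5% of all 7367 eligible genes, a share near the background. The lower ones numbered 60 (3.44%), against 5.52% of all eligible genes. In neighbours with the same gap on opposite strands, 2.98% were lower in divergent pairs and 4.29% in convergent pairs. With TMM scaling, which takes the median ratio of all eligible genes from 0.15 to -0.020, 236 members (13.5%) were higher and 98 (5.63%) lower, beside 13.1% and 7.82% of all. Higher genes made up 83.4% of the members past 2-fold as deposited, beside 74.9% of all eligible genes past it. When ratios were centred on the median of all genes, these shares were 72.4% and 64.1%. They were 70.7% and 62.6% under TMM, and 64.3% and 58.5% after the median of each length class was removed. The median log2 ratio was 0.20 in the members and 0.15 in all eligible genes. No difference between these shares was tested.

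Both genes were eligible in 807 of the 1182 pairs, 1 gene in 275 and neither in 100. Across the 807 pairs the downstream ratio followed the upstream ratio weakly, with a Spearman's rho of 0.13 and a Pearson's r of 0.18. Across the 2344 eligible tandem pairs with gaps over 500 bp, rho was 0.15 and r 0.20. With at least 100 reads of both genes in both libraries, rho was 0.067 and r 0.081 in close pairs, and 0.12 and 0.15 with larger gaps. With a minimum of 20 RPKM rho was 0.081 in close pairs and 0.14 with larger gaps. In these comparisons neither value was larger in the close pairs, and no test of the difference was made. These are descriptions: the points share both libraries and their scaling, and 180 genes are downstream in one pair and upstream in the next. By gap, rho was 0.20 for 1 to 100 bp (102 pairs), 0.20 above 100 and up to 250 bp (181 pairs), 0.092 above 250 and up to 500 bp (524 pairs), 0.16 up to 1000 bp (793 pairs), 0.13 up to 2000 bp (779 pairs) and 0.16 beyond (772 pairs). The gap classes give no steady order.

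**Figure D2:**
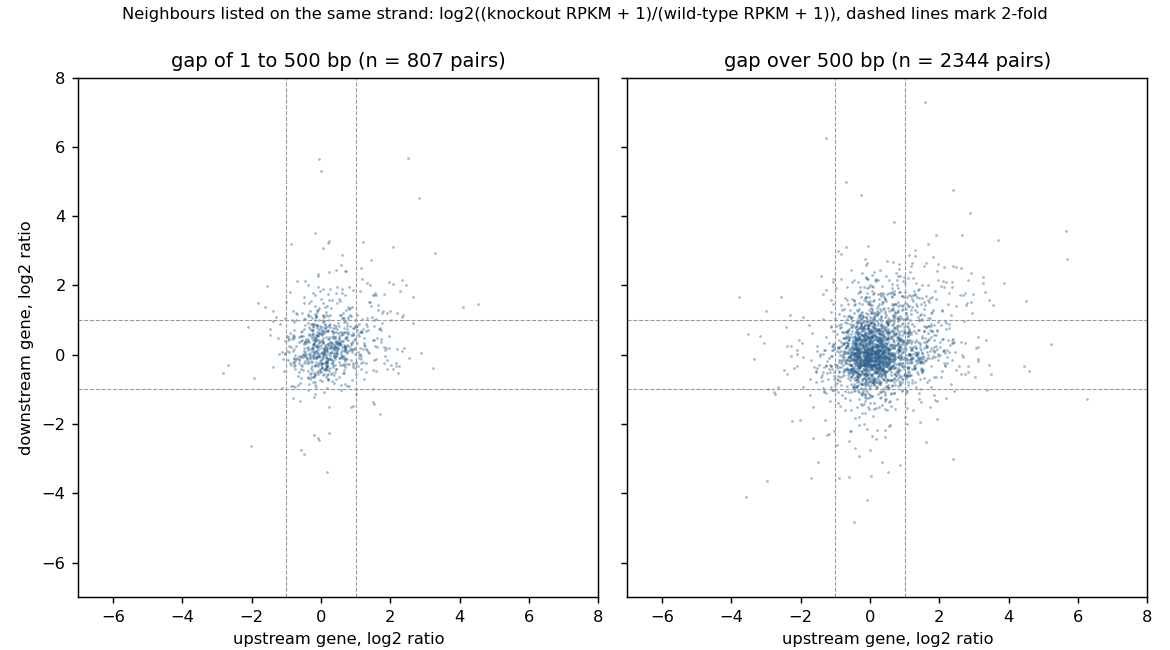
Log2 ratio of the downstream gene (y axis) against that of the upstream gene (x axis), 1 point per pair with both genes eligible, for 807 pairs with a gap of 1 to 500 bp (left) and 2344 with larger gaps (right). Both clouds are nearly round, with rho of 0.13 and 0.15.

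Similar values were found for other arrangements at these gaps. Neighbours listed on opposite strands with the same gap had a rho of 0.17 where they diverge (335 pairs) and 0.15 where they converge (480 pairs). With gaps over 500 bp rho was 0.16 for divergent pairs (1133) and 0.073 for convergent pairs (585). Same-strand genes with 1 gene between them had a rho of 0.023 over 3480 pairs, and those with 4 genes between them 0.013 over 3413 pairs. Tandem genes whose models overlap or touch at 1 base, which are not members, had 0.43 over 90 pairs, and how reads in a shared stretch were counted is not known here.

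**Figure D3:**
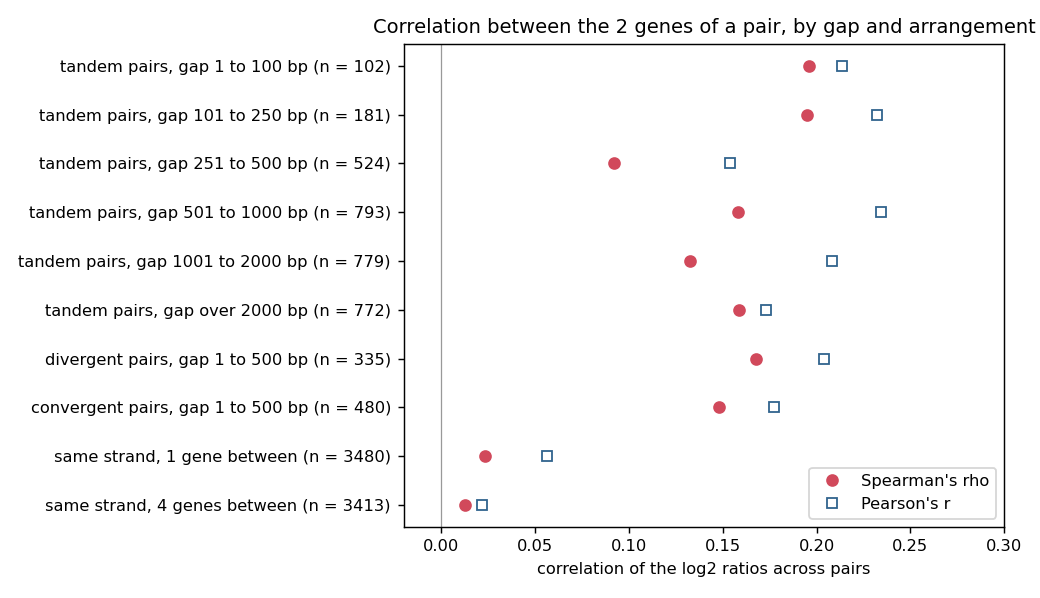
Spearman's rho (filled circles) and Pearson's r (open squares) of the 2 log2 ratios of a pair (x axis) for classes of gap and arrangement (y axis, number of eligible pairs in brackets). The plotted classes of direct neighbours lie between 0.092 and 0.20 in rho, and genes with others between them near 0. Convergent and divergent pairs with larger gaps and overlapping models are not plotted.

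Pairs listed plus gave a lower value when close. Over 129 such pairs rho was -0.046 and r 0.0056. Over 296 plus pairs with larger gaps rho was 0.24 and r 0.29. Among pairs listed minus, rho was 0.16 over 678 close pairs and 0.14 over 2048 with larger gaps. Among pairs with both genes above the upper quartile of level, where 44.2% of genes are listed plus, rho was 0.11 over 97 close pairs and 0.022 over 211 with larger gaps. The order of close and larger gaps thus differed between these sets.

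Pairs with both genes past 2-fold on 1 side were nearly all on the higher side, 42 against 1 (31 against 3 with TMM scaling). Of 129 close pairs whose upstream gene was higher, 42 had a higher downstream gene as well (32.6%, exact binomial interval 24.6% to 41.4%, which treats pairs as independent). With larger gaps it was 117 of 406 (28.8%, 24.5% to 33.5%). The intervals overlap. Both shares lie above the 16.5% of all eligible genes, but several genes of the 42 pairs passed the filter only through the knockout, where they are higher. Among close pairs listed plus the share was 3 of 21 (14.3%, 3.05% to 36.3%), below that background, and among those listed minus 39 of 108 (36.1%, 27.1% to 45.9%). With larger gaps 10 of 44 plus pairs (22.7%) had both genes higher. In divergent pairs of the same gap the share was 14 of 61 (23.0%) and in convergent pairs 18 of 69 (26.1%). With both genes above the upper quartile of level, shares were taken over upstream genes past 2-fold on either side. The downstream gene lay on the same side in 2 of 15 close pairs (13.3%) and 5 of 43 with larger gaps (11.6%). What weak genes add to the shares was not tested. On the lower side 1 of 26 close pairs had both genes lower (3.85%, 0.0973% to 19.6%, beside 5.52% of all eligible genes), against 22 of 113 with larger gaps (19.5%, 12.6% to 28.0%). These intervals overlap too, and with TMM scaling the close share was 3 of 43 (6.98%). Among pairs listed plus it was 0 of 3 when close and 8 of 22 with larger gaps (36.4%). In divergent pairs of the same gap it was 3 of 7 (42.9%) and in convergent pairs 3 of 20 (15%). Where the upstream gene was lower, the median downstream ratio was 0.44 in close tandem pairs and -0.28 in tandem pairs with larger gaps. A downstream gene was higher in 7 of the 26 close pairs (26.9%) and in 16 of the 113 with larger gaps (14.2%), beside 16.5% of all eligible genes. The genes lay past 2-fold on opposite sides in 11 of 807 close pairs and in 39 of 2344 with larger gaps. No difference was tested.

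**Figure D4:**
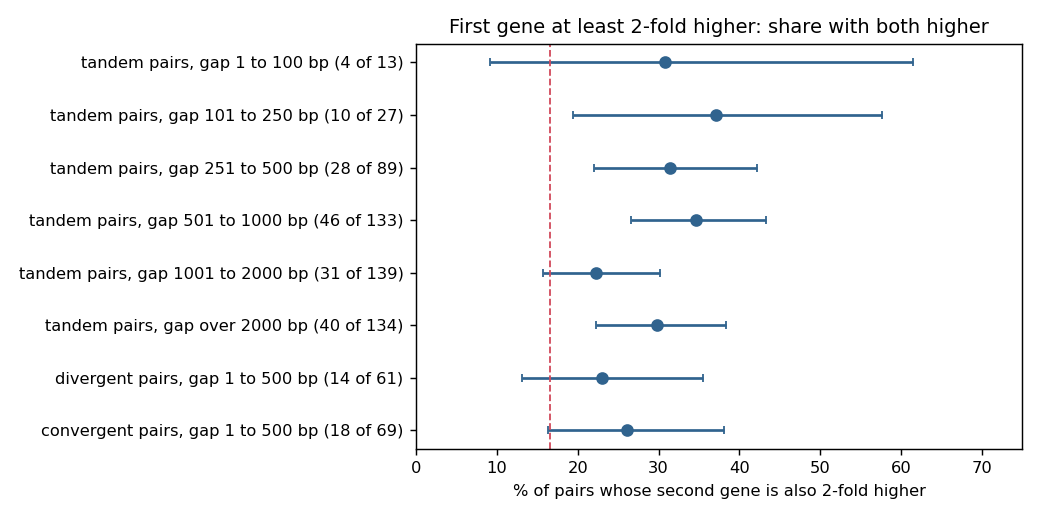
Among pairs whose upstream gene (in divergent and convergent pairs, the first by coordinate) was past 2-fold on the higher side, the share with a second gene also higher (x axis, percent, with exact 95% binomial intervals) by gap and arrangement (y axis, counts in brackets). The dashed line marks the 16.5% of all eligible genes, and the intervals of the gap classes overlap one another.

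Within a pair the 2 genes differed by a median of 0.58 on the log2 ratio scale (quartiles 0.29 and 1.10), against 0.65 (0.30 and 1.20) with larger gaps. At 1 to 100 bp the median difference was 0.53. In levels the genes of a pair were also loosely related: across close pairs the rho of log2(RPKM + 1) was 0.14 in the wild type and 0.13 without upf1, and 0.17 and 0.13 with larger gaps. The log2 level of the downstream gene minus that of the upstream gene had a median of -0.34 in the wild type and -0.24 in the knockout, against 0.04 in both with larger gaps. In 160 close pairs the upstream gene was at least 4-fold more abundant than the downstream one, by the mean of both libraries. Their rho was 0.094. It was 0.17 in 539 pairs within 4-fold and 0.037 in 108 pairs with the stronger gene downstream. In the same 3 classes of pairs with larger gaps rho was 0.11, 0.16 and 0.20.

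Of the 43 pairs with both genes past 2-fold on 1 side, 40 are listed minus and 3 plus. Ranked by the smaller of their ratios, the leading pair was NCU11748 and NCU08005, 20 bp apart on supercontig 4 (3890665 to 3893126, minus strand). NCU11748, a hypothetical protein upstream, had 20.2 RPKM in the knockout from 553 reads against 1.18 in the wild type from 16 reads, 17.1-fold higher (10.4 to 30.2). NCU08005 encodes Arh1, the reductase that passes electrons from NADPH to mitochondrial ferredoxin. It had 137 and 17.1 RPKM, 8.01-fold higher (7.49 to 8.58), and overlaps another gene model. On supercontig 3, NCU11292 had 308 and 42.6 RPKM, and NCU11291, 468 bp downstream, 90.3 and 2.95 RPKM. These are 7.24-fold (6.77 to 7.76) and 30.6-fold (24.1 to 39.4) higher, and neither product has a name. The next gene, NCU08752, an acetylcholinesterase 435 bp further on, had 23.1 and 7.68 RPKM, so that this run of 3 genes was higher throughout.

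The other 4 leading pairs on the higher side included very unequal and nearly equal ratios. NCU09278, an oxidoreductase gene on supercontig 7, had 35.7 RPKM in the knockout against 5.48 in the wild type. Its neighbour NCU09277, 152 bp downstream, had 67.9 RPKM from 1616 reads and 0.339 from 4 reads, a 200-fold ratio (78.0 to 735). Here the downstream gene exceeded the upstream one in the knockout and lay far below it in the wild type. On supercontig 1, NCU00640 had 147 and 28.3 RPKM, and NCU00641, the cytochrome c oxidase assembly factor cox-16, had 151 and 33.0 RPKM at 369 bp. Both models are short, 300 and 345 bases, and both genes had similar levels and similar folds, 5.20 and 4.59. NCU05017 and NCU05018 on supercontig 6, 400 bp apart, had 303 and 1060 reads in the knockout against 20 and 33 in the wild type. Over library totals these are 7.50-fold (4.77 to 12.5) and 15.9-fold (11.3 to 23.2) higher. NCU12051 and NCU12050 on supercontig 7, 69 bp apart, had 7.57 and 17.5 RPKM in the knockout against 1.02 and 3.47 in the wild type.

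The one pair lower on both sides was NCU08100 and NCU08099 on supercontig 1 (254975 to 256627, minus strand), both hypothetical. NCU08100 had 7.11 RPKM in the knockout against 31.9 in the wild type, 4.49-fold lower (3.79 to 5.34). NCU08099, 472 bp downstream, had 8.38 and 56.9 RPKM, 6.79-fold lower (6.03 to 7.66).

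Further pairs with both genes higher were picked from the 42 for their named products after their values were seen. Other named products in the 42 include an arsenical-resistance protein, the small nuclear ribonucleoprotein SmG and an arabinogalactan galactosidase. No share of any class of product is given here. The copper chaperone Cox17 (NCU02530), which delivers copper to cytochrome c oxidase, had 48.7 RPKM in the knockout against 17.6 in the wild type, and NCU02529, 166 bp downstream, 26.4 and 8.46. TOM7 (NCU04181, symbol tom7), a small subunit of the outer membrane translocase, had 265 and 118 RPKM, and the carrier gene NCU04180 (Flx1) 93.7 and 15.8. BCS1 (NCU03231), the chaperone that assembles respiratory complex III, had 61.1 and 19.7 RPKM, with mitochondrial ribosomal protein S18 (NCU03230) at 249 and 122 RPKM behind it. The pair of adenosine deaminase (NCU00438) and nitrilase (NCU00437), 130 bp apart, had 44.5 and 20.3 RPKM in the knockout against 11.9 and 5.34 in the wild type, nearly equal folds. Among plus pairs, NCU02937 had 3532 and 592 reads, 2.96-fold higher over library totals (2.71 to 3.23). Proline oxidase (NCU02936), the first enzyme of proline breakdown, had 52.8 and 15.4 RPKM, 3.42-fold higher (3.20 to 3.66).

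Pairs with opposite directions were found at gaps as short as those with joint ones. At 20 bp, NCU07452 (symbol mig-2, product NADPH dehydrogenase) had 5.77 RPKM in the knockout against 23.0 in the wild type, 3.99-fold lower (3.58 to 4.45). NCU07453, directly downstream on supercontig 1, had 92.2 and 31.9 RPKM, 2.89-fold higher (2.72 to 3.08). At 498 bp, the FAD-dependent oxidoreductase gene NCU06042 was 3.03-fold lower (2.90 to 3.16) with 23.3 against 70.6 RPKM. Its downstream neighbour ars-1 (NCU06041), an arylsulfatase that frees sulfate under sulfur limitation, was 6.24-fold higher (4.91 to 8.05) with 7.92 against 1.27 RPKM. NCU02988 had 7.36 RPKM in the knockout against 24.8 in the wild type, while NCU02989, 287 bp downstream, had 62.3 and 23.1. NCU09197 had 23.9 RPKM against 6.62, and NCU09196, 309 bp downstream, 1.75 against 7.91 RPKM. In 3 of these 4 pairs it was the upstream gene that was lower. All 4 are listed minus, so upstream and downstream rest on that listing, which was not checked.

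The 6 pairs with the smallest gaps, 1 to 3 bp, showed unequal ratios in several cases although the models touch or nearly touch. All 6 are listed minus, so their tandem order rests on that listing, which was not checked. Dihydrofolate reductase (NCU11825), which regenerates tetrahydrofolate, had 65.1 RPKM in the knockout against 70.5 in the wild type. The gene that touches it downstream on supercontig 3, NCU00057, a 3-oxoacyl-[acyl-carrier-protein] synthase of fatty acid synthesis, had 122 and 49.4 RPKM, 2.46-fold higher (2.35 to 2.59). The U1 small nuclear ribonucleoprotein C gene (NCU01341), part of the spliceosome, had 24.8 and 23.7 RPKM, whereas NCU01340 behind it had 46.7 and 22.9, 2.04-fold higher (1.85 to 2.25). The actin-related gene arp-4 (NCU02555) had 85.7 and 80.2 RPKM, and the golgi complex gene NCU02554 13.2 and 18.4 RPKM. NCU00060, with a WW domain, had 27.0 and 19.2 RPKM, and NCU00059 8.17 and 7.98. In the remaining 2 pairs the ratios were closer. 6-phosphogluconate dehydrogenase 2 (NCU11370) of the pentose phosphate pathway and arg-14 (NCU07682), the acetylglutamate synthase of arginine synthesis, were 1.43-fold and 1.49-fold higher at a gap of 2 bp. NCU02238 and NCU02237 had 7.28 and 9.18 RPKM in the knockout against 5.14 and 8.21 in the wild type.

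**Figure D5:**
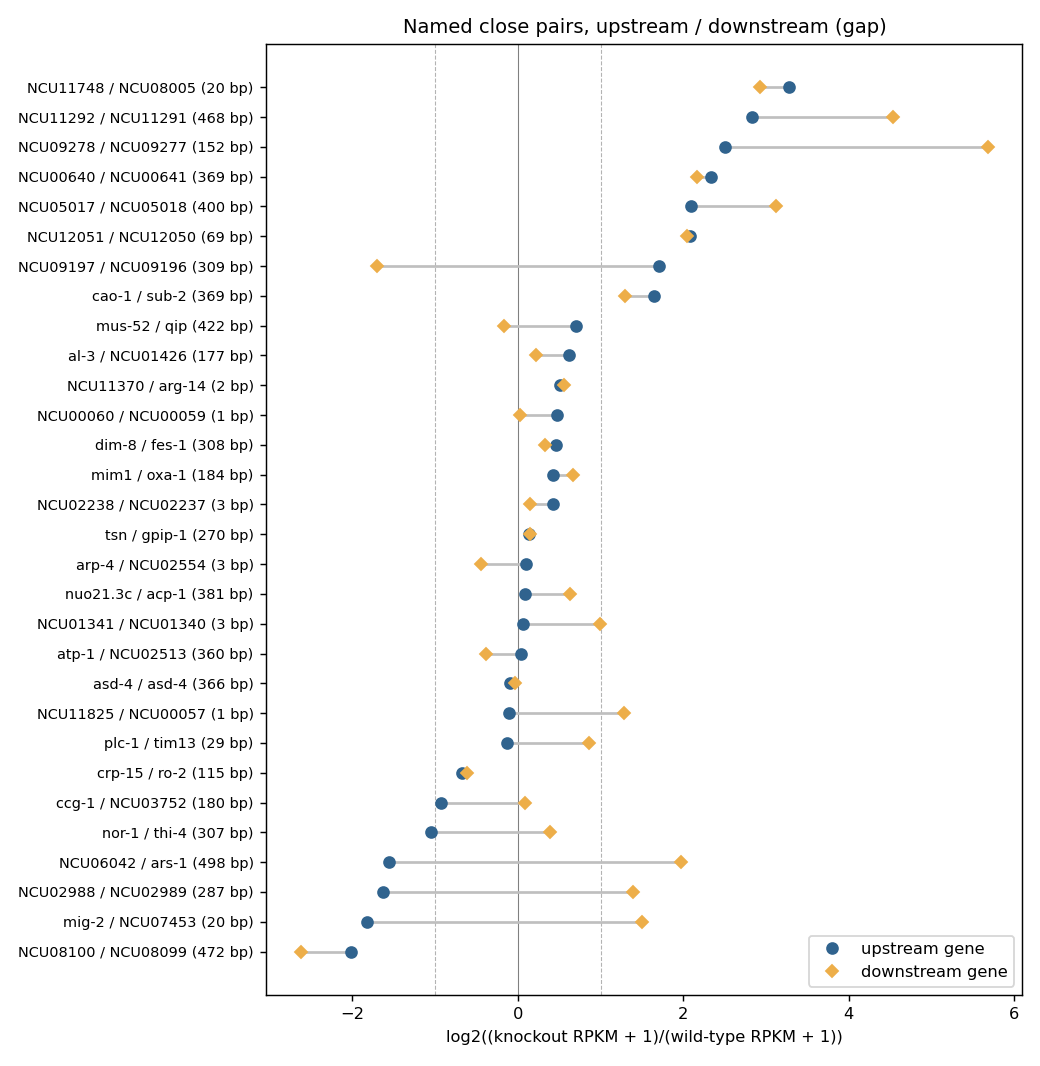
Log2 ratio of the upstream gene (circle) and the downstream gene (diamond) of 30 named close pairs (y axis, gap in brackets), with lines joining the genes of a pair and dashed lines at 2-fold. Pairs at gaps of 1 to 3 bp include near-equal ratios (NCU11370 and arg-14) and unequal ones (NCU11825 and NCU00057).

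Pairs of genes with known symbols mostly lay within 2-fold. Of 14 eligible pairs with a symbol on both genes, the 10 with the smallest gaps were taken. cao-1 (NCU07008), of the carotenoid oxygenase family, had 25.3 RPKM in the knockout against 7.43 in the wild type. sub-2 (NCU07007), 369 bp downstream, had 6.22 and 1.94 RPKM, so that both were higher, 3.41-fold (3.05 to 3.83) and 3.20-fold (2.66 to 3.88). nor-1 (NCU07850), the regulator of NADPH oxidase, was 2.10-fold lower (2.03 to 2.17) with 39.3 against 82.5 RPKM, and thi-4 (NCU07849) behind it had 103 and 78.6 RPKM. crp-15 (NCU00258), a protein of the small ribosomal subunit, had 347 and 555 RPKM. ro-2 (NCU00257), the p62 subunit of dynactin, had 8.49 and 13.5 RPKM at 115 bp. Their folds were alike, 1.60 (1.56 to 1.63) and 1.59 (1.44 to 1.74) lower, at levels far apart.

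mus-52 (NCU00077), a Ku protein of DNA end joining, had 26.8 RPKM in the knockout against 16.1 in the wild type, and qip (NCU00076), the exonuclease partner of the Argonaute protein QDE-2 in quelling, 15.0 and 16.9. Phospholipase C (plc-1, NCU06245) had 22.9 and 25.1 RPKM, and tim13 (NCU06244), a small chaperone of mitochondrial import, 147 and 80.9 RPKM at 29 bp. tim13 overlaps another model. The plus pair mim1 (NCU01101) and oxa-1 (NCU01102) joins an outer membrane import protein to the inner membrane insertase. They had 66.9 and 67.2 RPKM in the knockout against 49.4 and 42.1 in the wild type. The plus pair nuo21.3c (NCU05009) and acp-1 (NCU05008), of respiratory complex I and its acyl carrier protein, had 122 and 200 RPKM in the knockout against 114 and 128 in the wild type. tsn (NCU06664) and gpip-1 (NCU06663) had knockout to wild-type ratios of 1.10 and 1.11, whose direction flipped under TMM scaling and under both kinds of centring.

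Among pairs with a known light or clock gene, ccg-1 (NCU03753), an abundant clock-controlled transcript, had 619 RPKM in the knockout against 1177 in the wild type, 1.90-fold lower (1.87 to 1.94). NCU03752, 180 bp downstream, had 54.2 and 51.1 RPKM, a ratio of 1.06 (1.01 to 1.12). al-3 (NCU01427), the geranylgeranyl pyrophosphate synthase of carotenoid synthesis, had 60.9 and 39.4 RPKM, and NCU01426, 177 bp downstream, 30.4 and 25.9. No other close pair with both genes eligible held a gene of the qa, al, con or ccg families, frq or upf1.

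The longest run of close tandem genes held 6 genes on supercontig 1 (2577476 to 2590589, listed minus). In the listed direction it begins with NCU11472, with 50 knockout reads and 0 wild-type reads. NCU02516 follows with 283 and 3 reads, a ratio of 46.7 (15.8 to 228). The dipeptidyl aminopeptidase gene NCU02515 had 22.5 and 18.6 RPKM, and NCU11471 3.67 and 1.87. atp-1 (NCU02514), the alpha subunit of mitochondrial ATP synthase, had 643 and 628 RPKM, and NCU02513 at the end 111 and 145. The unequal reads at the start of this run were not found in atp-1 and NCU02513 at its end.

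Annotation bears on what counts as a pair. Both identifiers matched the RefSeq gene table in 999 close pairs, and in 2 of them they matched a single RefSeq locus. These are asd-4, a GATA factor of sexual development (NCU07040 with 8.88 and 9.51 RPKM, NCU07039 with 14.0 and 14.4), and the locus of NCU10017 (40.7 and 38.7 RPKM) and NCU10018 (22.3 and 22.2 RPKM). Across these 2 pairs the entries differed by a median of 0.058 on the log2 ratio scale, well under the 0.58 of close pairs. Among 997 pairs at separate RefSeq loci of 1 chromosome, 15 have a further locus between them there, against 453 of 3939 (11.5%) with larger gaps. Shared product names were another case: 18 close pairs carry the same product name. In several the symbol names another protein. fes-1 (NCU06606), the Rieske iron-sulfur protein, is listed with the product of its neighbour dim-8 (NCU06605), DNA damage-binding protein 1, and tim17 (NCU05623) is listed as L-asparaginase like NCU05624. dim-8 had 31.6 RPKM in the knockout against 22.7 in the wild type, and fes-1 202 and 161. tim17, of the inner membrane translocase, had 423 and 163 RPKM, and NCU05624 7.43 and 4.15.

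The proteins that cut, polyadenylate and terminate transcripts help set how often a polymerase passes a gene's end. Of 18 genes of cleavage, polyadenylation, poly(A) binding, termination and the exosome, 18 were eligible. Among them 1 was higher and 1 lower, beside 16.5% and 5.52% of all eligible genes, and no difference was tested. Their median log2 ratio of 0.07 compares with 0.15 over all eligible genes. A poly(A) polymerase gene (NCU08022), itself in a close pair, had 14.8 RPKM in the knockout against 31.3 in the wild type, and exosome component 1 (NCU04155) 79.9 and 37.1. The poly(A) polymerase un-17 (NCU08983) had 55.9 and 35.7 RPKM, and fip-1 (NCU07654), a factor that tethers it, 103 and 57.3. Pcf11 (NCU01696), which couples cleavage to termination, had 8.31 and 9.33 RPKM, and the nuclear 5'-3' exoribonuclease 2 (NCU01643), which degrades the RNA behind the cut, 21.9 and 18.3. Neither of these termination genes differed by 2-fold.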

How the data were processed

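The authors deposited 1 table with raw read counts and RPKM values per gene for both libraries, per the file headers. The submitters' processing notes name Bowtie 0.12.2. Build, annotation, counting rule and strand use were not given in the sources used here. Overlapping or antisense genes and close paralogues are therefore uncertain. Columns were assigned by the initials of the sample titles, and 0 columns of values were left unassigned.

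Genes were sorted by supercontig, start and end. Gap, order and direction follow the listed coordinates and strand. Library totals were recovered from reads, RPKM and length. Symbols came from a RefSeq table of assembly NC12 (8942 of 9454 identifiers matched, 1113 with a symbol), used for names and gene order. Motif counts in the gaps were not analysed here. A count of 0 allows 3 reads, which for 1 kb is 0.0503 (knockout) or 0.102 RPKM (wild type). Reads carry no molecular identifiers, so intervals cover counting error only.

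Correlations, shares with exact Clopper-Pearson intervals and medians were computed in Python 3.11.15 with scipy 1.17.1, and TMM factors with edgeR 4.0.16. The pair statistics were run on simulated reads with counting noise alone and a shared component planted in close pairs. That component was stronger than the correlations found here. The run checks the computation and cannot show whether a difference as small as that between the gap classes would be found. The members, lists and tests were chosen with earlier results of these data known. Named pairs were up to 6 with the strongest joint change on each side, the 4 most opposite, the 6 with the smallest gap and 10 with 2 symbols. The longest run and pairs with upf1, frq, qa, al, con or ccg genes were named too. Both genes were eligible, except in the longest run. Up to 4 genes of the transcript end list were to be named by size of ratio, and Pcf11 and the 5'-3' exoribonuclease were added after their values were seen. So were the pairs at 1 RefSeq locus, those with 1 product name and the further joint pairs. Alternatives were other pseudocounts (0.1 and 5), filters (none, 20 RPKM and 100 reads), scalings, gap limits (250 and 1000 bp), 1 pair per run, and pairs without mitochondrial genes, overlaps or shared product names. Sets by listed strand and by level were added after the data were seen.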

Additional observations from a re-analysis of the deposited data

How the results depend on the processing

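Of 140 values of correlations, shares, median differences and counts recomputed under an alternative, 118 stayed within the tolerance (0.1 for a correlation, the binomial interval for a share, 1.5 times for a median or count). In plus pairs the close rho changed sign. The tolerance for a correlation is wide beside values this small: rho of close pairs went from 0.13 to 0.067 at 100 reads and 0.081 at 20 RPKM, moves of over 1.5 times. Restricting pairs to genes with at least 100 reads in both libraries moved the share of downstream genes on the side of a changed upstream gene from 27.7% to 18.5% in close pairs and from 26.8% to 21.6% with larger gaps. A pseudocount of 5 took the latter to 19.5%. The count of higher members went from 301 to 190 at 20 RPKM, 120 at gaps to 250 bp (17.9% of eligible members) and 546 to 1000 bp. Lower members went from 60 to 117 with length centring (6.72% of eligible members, beside 8.19% of all eligible genes). With median centring they were 93 (5.34% beside 7.4%) and with TMM scaling 98 (5.63% beside 7.82%). They numbered 25 at gaps to 250 bp (3.73%) and 137 to 1000 bp. As deposited, 16.5% of all eligible genes were higher and 5.52% lower. The counts at 20 RPKM and 1000 bp have no such share beside them. Fewer or more genes enter under other gaps and filters. For the other moves the cause was not tested.

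Of the sets chosen after seeing the data, close plus pairs gave a rho of -0.046, an r of 0.0056 and a share of 12.5%. They held 39 higher genes (15.2% of their eligible genes) and 7 lower (2.72%), beside 16.5% and 5.52% of all eligible genes. Over 97 close pairs above the upper quartile of level the share was 13.3% (2 of 15, 1.66% to 40.5%). These pairs held 30 higher and 8 lower genes, counts that have no share of eligible genes beside them. With larger gaps such pairs gave a rho of 0.022, an r of 0.038 and a share of 11.6% (5 of 43, 3.89% to 25.1%). Of 300 ratios of named genes recomputed with other pseudocounts and scalings, 142 stayed within the counting interval of the gene and 158 moved beyond it. The intervals given with the folds do not cover such moves. Of 26 named genes past 2-fold, 3 fell within it with a pseudocount of 5 and 1 with length centring, and the other planned settings kept all 26 past it. Some named genes near a ratio of 1 changed direction with the scaling. No paired analysis was possible because each strain has 1 library. For the same reason no replicate could be left out. Depth limits weak genes most: NCU09277 rests on 4 wild-type reads and NCU02516 on 3.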
